A study of Callithrix jacchus with 4 samples.

Results

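Genes of the mitochondrial respiratory chain were followed in single-nuclei RNA sequencing (snRNAseq) of marmoset primary visual cortex (V1), 7 days after ischemic injury. A gene was taken as a member when its symbol began with NDUFA, NDUFB, NDUFC, NDUFS or NDUFV, with UQCR, with COX and a digit from 4 to 8, or with ATP5, or was SDHA, SDHB, SDHC or SDHD, and when both count tables listed it. This gave 66 members among the 16383 genes that both tables list. Of these, 53 were listed by symbol and 13, such as COX4I1, UQCRFS1 and ATP5H, by an Ensembl identifier that was matched to a symbol. The members comprised 28 subunits of complex I, 4 of complex II, 3 of complex III, 13 of complex IV and 9 of complex V, with 8 assembly factors of complex I (NDUFAF1 to NDUFAF8) and ATP5S, which is not a structural subunit.

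The respiratory chain passes electrons from NADH, through complex I, and from succinate, through complex II, to complexes III and IV, which reduces oxygen to water. Complexes I, III and IV pump protons across the inner mitochondrial membrane, and complex V, the ATP synthase, uses the returning protons to make ATP. Neurons depend strongly on this pathway, which stops when oxygen supply fails. The subunits encoded in the mitochondrial genome were not analysed here, so the account covers nuclear genes only.

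In the injured cohort, 3 adult marmosets received endothelin-1 (ET-1), a peptide that constricts blood vessels, in V1 of the left hemisphere, and the dissected gray matter included the lesion core and its border. Each animal gave 1 library, and injured 1, 2 and 3 are the animals F1619, F1565 and F1711. The control cohort was V1 of 3 uninjured adult marmosets pooled in a single library, which leaves the variation among control animals unknown. The labels describe separate injured and uninjured animals, but another passage of the study names V1 of the hemisphere opposite the lesion as the uninjured control, so whether the cohorts share animals is not settled. Nuclei carried the cell type that the authors had assigned: excitatory neurons (ExN), inhibitory neurons (InN), astrocytes (Astro), oligodendrocytes (Oligo), their precursors (OPC), microglia and endothelial cells (Endo).

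The libraries held 7500 to 12527 nuclei and 22832703 UMIs (unique molecular identifiers, the tags that mark single captured transcripts) in control against 35737777 to 48722394 in injured. The median nucleus held 2117 UMIs in control and 3531 to 4504.5 in injured. Injury cannot be told apart from the nuclei protocol, sequencing instrument and doublet removal, which also differed between the cohorts. The study assigned cell types by a list of markers, so the levels of these are no independent check of the labels. Of 32 of these marker genes, 31 were highest in their own cell type in injured nuclei and 31 in control nuclei. The exceptions were GPR34, at 32.2 CPM (UMIs of a gene scaled to a common library total) in injured microglia and 35.0 in injured OPC, and FLT1, at 299 in control Endo and 570 in control microglia. Pairs of libraries shared 15 to 27 nucleus barcodes. In these sums, fewer cells of a subtype and less RNA per cell cannot be told apart.

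Levels are given as CPM, relative to the UMIs in all genes of both tables, after summing the nuclei of 1 cell type in 1 library. Differences are log2 fold changes of injured over control from edgeR's quasi-likelihood test, with a standard error (SE) and a Benjamini-Hochberg adjusted p over all genes tested in that cell type. The SE was worked back from the test, as the size of the log2 fold change divided by the square root of the F statistic. A call required 3 things: an adjusted p under the limit of 0.01, a change of more than 0.25 in natural-log units in either direction, and UMIs of the gene in 10% or more of the nuclei of one of the cohorts. All cell types came from the same 4 libraries, so their comparisons share the single control library.

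The summed level of the 66 members in neurons was close to that of control. In ExN the sum was 2098, 2038 and 2029 CPM in injured 1, 2 and 3 and 2091 in control, which lay within the injured range. In InN it was 2571, 2550 and 2547 in injured and 2687 in control, a mean 0.951 times the control value. The control InN value lay above all the injured values, which spread little (2556 ± 13.4, SD, n = 3). Compared with the scaling of the tests, library size alone moved the median of all genes by -0.11 in ExN and -0.10 in InN. The log2 ratios of these sums, -0.025 and -0.072, were smaller in size than this shift, so their direction depended on the scaling.

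Outside neurons the summed level differed more from control, except in Oligo. In Astro it was 2224, 2112 and 2065 in injured and 2533 in control, and in OPC 2083, 2083 and 1868 against 2311. In Oligo the values were 2004, 1982 and 1859 against 1855, and in microglia 2446, 2254 and 2285 against 1904. The injured values were thus below control in Astro and OPC and above it in microglia. In Endo the sum was 4695, 3715 and 4073 in injured and 2205 in control, a mean 1.89 times the control value. Ordered by the injured mean, Endo (4161 ± 496, SD, n = 3) came first and InN (2556 ± 13.4) next, followed by microglia (2328 ± 103), Astro (2134 ± 81.8), ExN (2055 ± 37.5), OPC (2011 ± 124) and Oligo (1948 ± 78.4). Astro and ExN, ExN and OPC, and OPC and Oligo were neighbours in this order that differed by less than the SD of one of the pair.

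**Figure D1:**
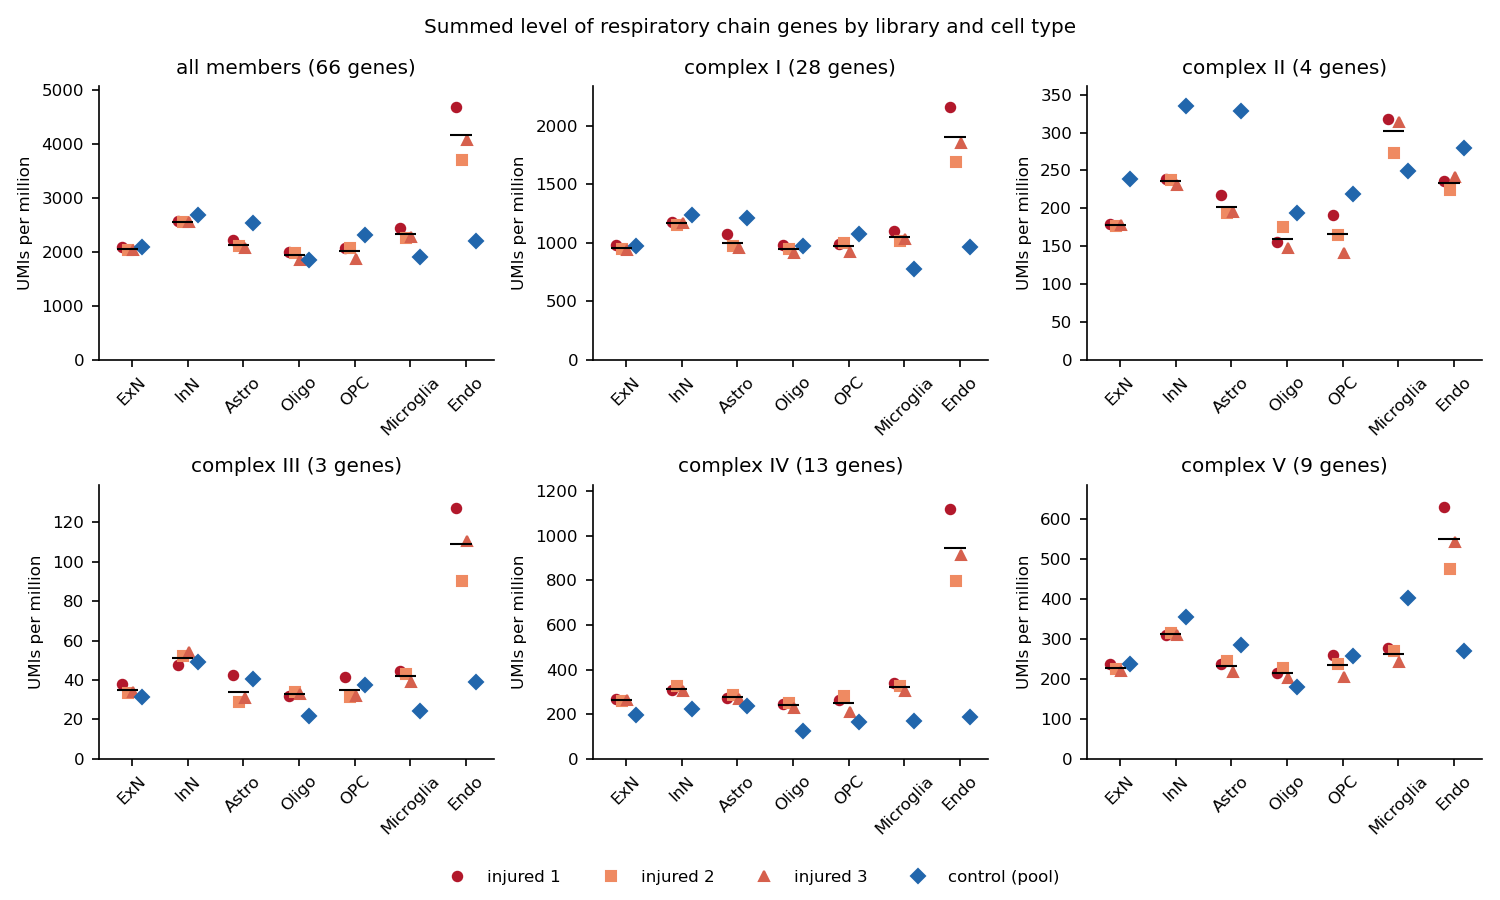
Summed level of all 66 members and of the subunits of complexes I to V, in CPM (vertical axis), by cell type (horizontal axis); each symbol is 1 library and the black line is the mean of the 3 injured libraries. Complex II sums of injured libraries sit below control in ExN, InN, Astro, Oligo, OPC and Endo, while complex IV sums sit above control in all 7 cell types.

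In neurons, the sums of single complexes lay on opposite sides of control. Complex IV, cytochrome c oxidase, summed to 270, 261 and 262 CPM in injured ExN and 195 in control, 1.35 times higher, and to 308, 325 and 304 against 221 in InN. Complex II, succinate dehydrogenase, summed to 180, 176 and 178 in injured ExN and 239 in control, 0.744 times the control value, and to 238, 238 and 231 against 335 in InN. Control lay outside the injured range in each of these sums. Complex I, NADH dehydrogenase, summed to 978, 948 and 938 in injured ExN against 972.5, and complex V to 238, 225 and 219 against 237, so that control lay within the injured range for both. In InN, control lay above every injured value, at 1177, 1151 and 1172 against 1233 for complex I and 309, 315 and 311 against 355 for complex V. The log2 ratios were -0.03 for complex I and -0.06 for complex V in ExN, and -0.08 for complex I in InN. Each was smaller in size than the shift from scaling given above, so its direction depended on the scaling.

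In ExN, 7 of 65 members tested were called and all 7 were higher in injured nuclei, against 3.85% of all 15122 genes tested (2.6% called higher). The median log2 fold change of the members was 0.11, and that of all genes 0.00. Of the 7 members, 5 belonged to complex I (NDUFA1, NDUFB1, NDUFB9, NDUFB11 and NDUFS8) and 2 to complex IV (COX4I1 and COX7C). The 10% limit was met in each case only through the injured nuclei, which were deeper (median 5949 UMIs in injured and 2678 in control ExN), so that it favors higher over lower calls.

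COX4I1, the ubiquitous form of the subunit on which cytochrome c oxidase is regulated by ATP, stood at 44.8, 49.6 and 46.7 CPM in injured ExN and 18.9 in control (log2 fold change 1.43, SE 0.16, edgeR adjusted p = 0.0025). COX7C, a small subunit of the same complex, stood at 34.9, 29.1 and 31.3 against 16.1 (1.08, SE 0.16, edgeR adjusted p = 0.0068). Every injured library was above control for both genes. Among the accessory subunits of complex I, which surround its catalytic core, NDUFA1 stood at 20.4, 21.9 and 19.6 against 6.61 (1.76, SE 0.20, edgeR adjusted p = 0.0028). NDUFB11 stood at 19.2, 21.0 and 20.3 against 6.55 (1.74, SE 0.20, edgeR adjusted p = 0.0029). These were the members with the largest fold changes among the 7 called. NDUFB9 stood at 27.6, 27.7 and 27.2 against 12.6 (1.24, SE 0.16, edgeR adjusted p = 0.0041), and NDUFB1, with the smallest change, at 50.7, 46.8 and 49.3 against 30.5 (0.79, SE 0.13, edgeR adjusted p = 0.0088). NDUFS8, a core subunit that carries iron-sulfur clusters, stood at 25.0, 21.0 and 23.6 against 9.36 (1.42, SE 0.18, edgeR adjusted p = 0.0043).

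In InN, 6 of 62 members tested were called, all of them higher, against 3.41% of all 12984 genes tested (2.2% called higher). The median log2 fold change was 0.13 for members and 0.00 for all genes. The 6 were COX4I1, COX7B, COX7C, NDUFA1, NDUFB9 and NDUFS8. All met the 10% limit only through the deeper injured nuclei (median 5333 UMIs in injured and 2441 in control InN), which favors higher over lower calls. COX4I1 stood at 56.6, 67.2 and 53.3 CPM in injured InN and 24.3 in control (log2 fold change 1.39, SE 0.23, edgeR adjusted p = 0.0046). COX7B, another small subunit of complex IV, stood at 45.7, 42.8 and 45.1 against 21.1 (1.18, SE 0.21, edgeR adjusted p = 0.0061). The other 4 had log2 fold changes of 1.29 (NDUFB9), 1.33 (COX7C), 1.46 (NDUFS8) and 1.69 (NDUFA1), with edgeR adjusted p from 0.0066 to 0.0091. For all 6, each injured library was above control.

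These neuronal calls depended on settings, as did those of all genes. Without injured 1, 0 members were called in ExN (28 of 65, 43.1%, at an unadjusted p below 0.05, against 33.9% of all genes), where calls over all genes went from 582 to 77. The median of the members there was 0.13. In InN, 0 members were called without injured 1 (32.3% at that unadjusted limit, against 30.6% of all genes), and calls over all genes went from 443 to 245. Without injured 2 there were 7 members and 919 genes called in ExN and 10 members and 1541 genes in InN. Without injured 3 there were 7 members and 920 genes in ExN and 1 member and 304 genes in InN. With nuclei thinned to 1000 UMIs, 0 members were called in both, with 107 and 106 of all genes. Only 5 members in ExN and 6 in InN then met the 10% limit, against 44 and 43 without thinning, so few could be called. At an unadjusted p below 0.05 there were then 24 of 60 members (40.0%) in ExN, against 32.3% of all genes, and 17 of 56 (30.4%) in InN, against 24.2%, and 4 in ExN and 1 in InN passed the limits on p and fold alone. With nuclei of at most 2500 genes, 1 member was called in each, with 243 genes in ExN and 436 in InN. DESeq2 called 1193 of 15122 genes in ExN, where 12 of 65 members passed the limits on p and fold alone.

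**Figure D2:**
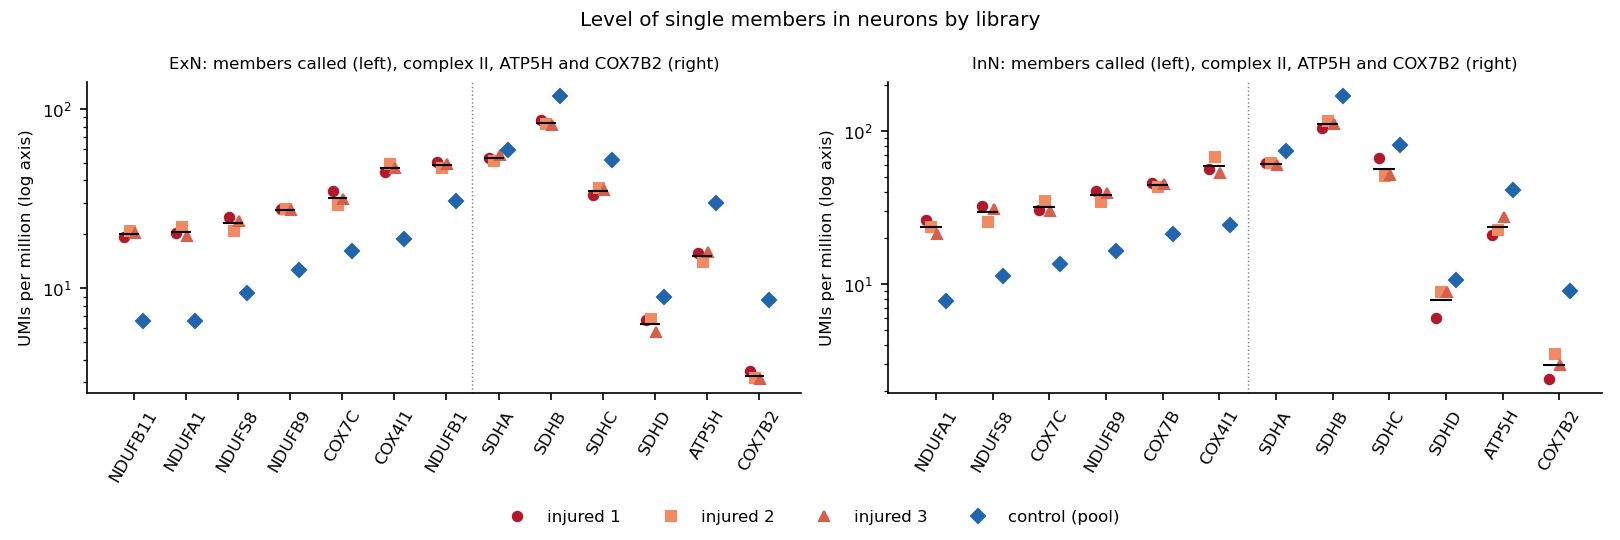
Level of single members in ExN (left panel) and InN (right panel), in CPM on a log axis; each symbol is 1 library and the black line is the mean of the 3 injured libraries. Left of the dotted line are the members called in that cell type, where every injured library is above control; right of it are the complex II subunits, ATP5H and COX7B2, where every injured library is below control.

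No member was called lower in any cell type at these limits with all libraries. In ExN the limit of 10% of nuclei left out 3 members that passed the limits on p and fold. NDUFA2, an accessory subunit of complex I, stood at 15.3, 11.6 and 12.2 CPM in injured ExN and 3.34 in control (log2 fold change 2.07, SE 0.26, edgeR adjusted p = 0.0040). ATP5G3, one of the genes for the ring subunit c of the ATP synthase, stood at 14.2, 11.6 and 11.7 against 4.10 (1.71, SE 0.24, edgeR adjusted p = 0.0053). The third was NDUFA6, an accessory subunit of complex I and the only member with no UMI in a whole cohort. It had 65 control UMIs and 0 in all injured libraries, and in ExN, with 44 control UMIs, it was at least 48.7-fold lower in injured nuclei against a floor of 3 UMIs over the cohort. In all, 456 genes (2.78% of those in both tables) had 0 UMIs in every injured library. A fall in NDUFA6 expression therefore cannot be told apart from a difference between the cohorts in how the gene was annotated or counted.

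Complex II oxidizes succinate in the tricarboxylic acid (TCA) cycle and is the one complex with no subunit encoded in mitochondria. SDHB, its iron-sulfur subunit, stood at 86.4, 82.3 and 81.2 CPM in injured ExN and 119 in control (log2 fold change -0.40, SE 0.11, edgeR adjusted p = 0.037). In InN it stood at 104, 117 and 111 against 170 (-0.52, SE 0.15, edgeR adjusted p = 0.040). SDHC, a membrane anchor, stood at 33.2, 36.2 and 35.5 against 52.4 in ExN (-0.47, SE 0.13, edgeR adjusted p = 0.048). All injured libraries were below control for these genes, and none reached the limit of 0.01. SDHA, the catalytic subunit, had log2 fold changes of -0.03 in ExN and -0.17 in InN, and SDHD, the other anchor, of -0.38 and -0.29, with edgeR adjusted p from 0.24 to 0.87.

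At the looser limit of 0.05 on the adjusted p, ExN gave 12 members, 9 higher and 3 lower, against 12.1% of all genes tested, and InN 11, 9 higher and 2 lower, against 11.0%. The lower members included NDUFV1, SDHB and SDHC in ExN and SDHB in InN. NDUFV1, the flavoprotein that accepts electrons from NADH, had a log2 fold change of -0.56 (SE 0.15, edgeR adjusted p = 0.038) in ExN.

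The largest negative log2 fold changes in neurons, among members with at least 10 UMIs in each cohort, were those of COX7B2 and ATP5H. COX7B2, a complex IV isoform gene, stood at 3.47, 3.18 and 3.13 CPM in injured ExN and 8.66 in control (-1.30, SE 0.22, edgeR adjusted p = 0.010), and at 2.41, 3.49 and 2.98 against 9.08 in InN (-1.46, SE 0.43, edgeR adjusted p = 0.044). It had a UMI in under 10% of nuclei of either cohort. ATP5H, a stalk subunit of the ATP synthase, stood at 15.8, 14.1 and 15.9 against 30.1 in ExN (-0.87, SE 0.15, edgeR adjusted p = 0.011). Its value was negative in every cell type, from -0.69 in InN to -2.05 in OPC, though in Endo, with 3 control UMIs, thinning to 1000 UMIs turned the sign of the fitted value (5.84). In Astro it stood at 9.84, 8.57 and 7.85 against 38.1 (-2.02, SE 0.34, edgeR adjusted p = 0.012).

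Apart from COX4I1, the members with the most UMIs in each complex had log2 fold changes nearer to 0 in ExN than the 7 called members. In complex I these were NDUFS4 (121, 117 and 126 CPM in injured ExN and 153 in control, log2 fold change -0.22) and NDUFS1, the largest core subunit (87.7, 89.97 and 88.5 against 116, -0.27). In complex II they were SDHB and SDHA, described above. In complex III they were UQCRC1 (21.4, 18.6 and 20.1 against 18.5, 0.22) and UQCRB (11.04, 10.6 and 9.65 against 8.02, 0.49). In complex IV they were COX4I1, with its call in ExN, and COX6C (83.3, 83.7 and 87.6 against 70.4, 0.38). In complex V they were the catalytic subunits ATP5B (63.8, 57.4 and 57.5 against 66.1, -0.04) and ATP5A1 (45.7, 44.7 and 45.9 against 53.7, -0.13). Apart from COX4I1 and SDHB, none of these passed even the limit of 0.05.

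Core and accessory subunits of complex I differed in their sums. The 6 core subunits summed to 314, 308 and 300 CPM in injured ExN and 358 in control, and to 408, 403 and 407 against 498 in InN. The 22 accessory subunits summed to 663, 640 and 638 against 614 in ExN and to 769, 749 and 765 against 736 in InN. Control was thus above the injured range for the sum of core subunits and below it for that of accessory ones. By single genes, 3 of the 6 core subunits had positive log2 fold changes in ExN and 3 in InN. NDUFS8, a core subunit, was called higher in both. The complex I assembly factors, which build the complex and are not part of it, had none of 8 called and a median log2 fold change of -0.02 in ExN.

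**Figure D3:**
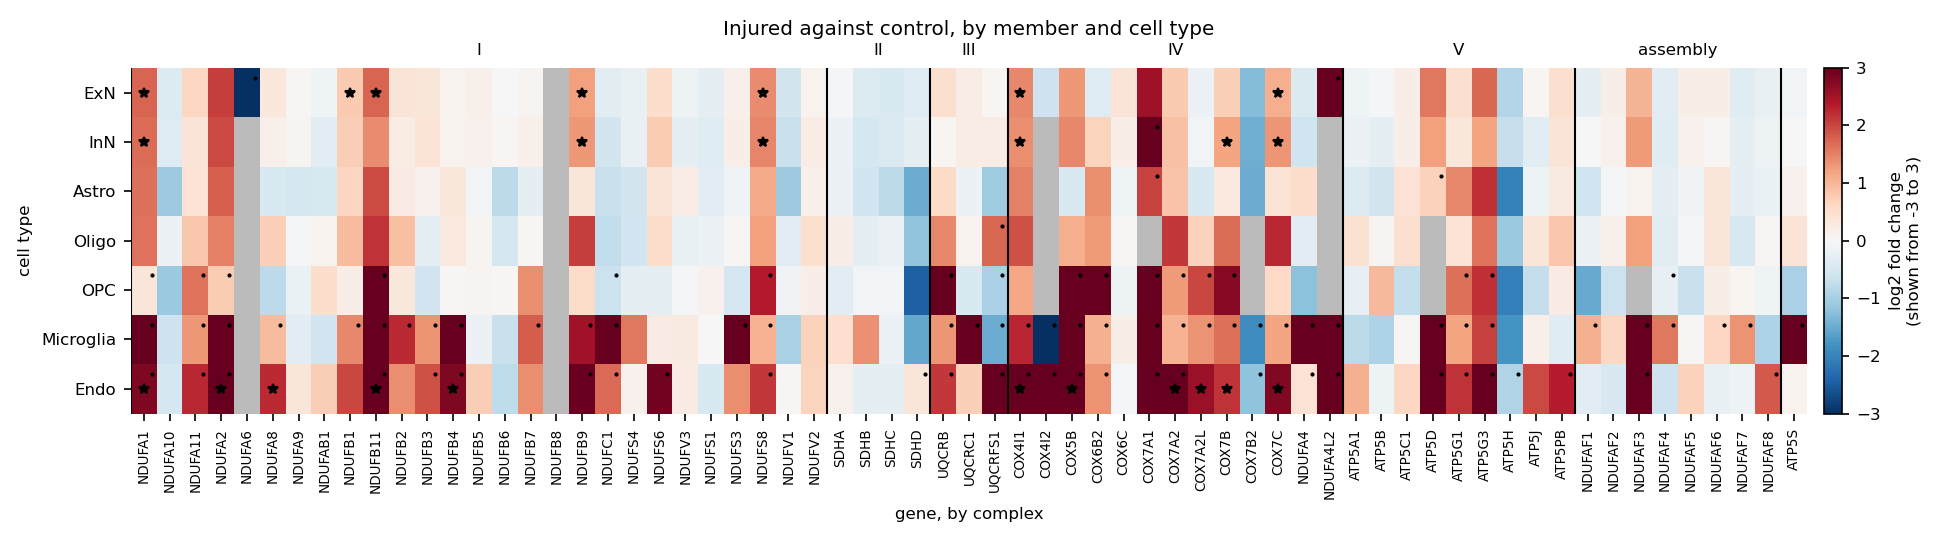
Log2 fold change of injured over control for 65 of the 66 members (horizontal axis, grouped by complex) in each cell type (vertical axis), colored from -3 to 3. Stars mark the 24 calls, gray cells were not tested, and dots mark values that rest on at most 3 UMIs in 1 cohort, which are most of those in the microglia row; such fitted values are not fold bounds.

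In Astro, the cells the study centers on, 0 of 62 members tested were called, against 1.5% of 12445 genes (18 members, 29.0%, had an unadjusted p below 0.05, near the 30.0% of all genes, and DESeq2 called 0 members and 350 genes). The median log2 fold change was -0.10 for members and 0.05 for all genes. COX4I1 stood at 44.5, 51.4 and 51.3 CPM in injured Astro and 18.5 in control (1.52, SE 0.32, edgeR adjusted p = 0.024), and was the only member past the looser limit of 0.05 with a UMI in 10% of nuclei. The complex II sum was 218, 194 and 195 against 328, 0.616 times the control value, with all 4 subunits at negative values from -0.19 (SDHA) to -1.495 (SDHD). NDUFA10, an accessory subunit of complex I, stood at 20.6, 25.0 and 19.1 against 49.7, and with SDHD and ATP5H had one of the largest negative values (-1.09, SE 0.29, edgeR adjusted p = 0.051). COX7A2, with the largest positive value after COX4I1 among members of at least 10 UMIs in each cohort, stood at 23.4, 23.7 and 17.8 against 12.7 (0.86, SE 0.41, edgeR adjusted p = 0.20).

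In Oligo, 0 of 59 members tested were called, against 0.774% of 11631 genes (17 members, 28.8%, had an unadjusted p below 0.05, against 30.8% of all genes, and DESeq2 called 0 members and 204 genes). The median was 0.28 for members and 0.02 for all genes. COX4I1 stood at 50.7, 49.0 and 49.5 CPM in injured Oligo and 14.1 in control (1.91, SE 0.28, edgeR adjusted p = 0.012), and COX7C at 37.4, 39.9 and 27.4 against 7.83 (2.25, SE 0.39, edgeR adjusted p = 0.019). Each injured library was above control for both. COX4I1 in Oligo was called with no filter on low counts and with nuclei of at most 2500 genes. The complex IV sum was 248, 251 and 226 against 124, 1.94 times the control value. SDHD (-1.17) and ATP5H (-1.11) had the most negative values, with edgeR adjusted p of 0.21 and 0.15.

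OPC and microglia had little control RNA. In OPC, 0 of 59 members tested were called, against 0.0697% of 11476 genes (10 members, 16.9%, had an unadjusted p below 0.05, against 19.9% of all genes, and DESeq2 called 0 members and 67 genes), and the members' control total was 432 UMIs. Among the 10 OPC members with at least 10 UMIs in each cohort, log2 fold changes included -0.66 (NDUFAF5) and were highest for NDUFS1 (0.13) and NDUFV2 (0.21). None of these 3 reached an edgeR adjusted p of 0.05. In microglia, 0 of 64 members tested were called, against 0.0% of 13470 genes (17 members, 26.6%, had an unadjusted p below 0.05, against 21.2% of all genes, and DESeq2 called 0 members and 318 genes).

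The 129 control microglia held 237 member UMIs, and 38 of the 64 tested members had at most 3 of them. The median log2 fold change of members in microglia was 1.06 as fitted and 0.16 with members that had no control UMI set to their bound. It was 0.42 for all genes as fitted. In OPC the corresponding values were 0.03 and -0.10 against 0.17. No bounds were set for all genes, so only the fitted medians of the members are of like measure with theirs. The size of the list median in microglia, and its sign in OPC, thus rested on members at 0 in control. SDHB stood at 169, 143 and 164 CPM in injured microglia and 72.3, from 9 UMIs, in control (1.37, SE 0.27, edgeR adjusted p = 0.070). NDUFS4, an accessory subunit needed for a stable complex I, stood at 110, 90.5 and 104 against 40.2, from 5 UMIs (1.58, SE 0.34, edgeR adjusted p = 0.080). The catalytic subunits of the ATP synthase lay the other way, with ATP5B at 57.6, 54.2 and 50.5 against 121 (-0.92) and ATP5A1 at 54.9, 47.9 and 49.6 against 104 (-0.80), with edgeR adjusted p of 0.17 and 0.29. CD74, an antigen presentation gene, stood at 1177 in injured and 8.03 in control microglia, and its part in these values was not tested.

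The nuclei annotated Endo were not of the same makeup in the 2 cohorts. Of the 181 control nuclei, 155 lay in a cluster with LAMA2 at 4675 CPM and FLT1, an endothelial receptor, at 10.9, and 26 in a cluster with FLT1 at 2866. Of the 4444 injured nuclei, 1647 lay in a cluster with FLT1 at 2259, 87 in another with FLT1 at 2705 that also held the hemoglobin gene HBB at 2944 and the neuronal gene SYT1 at 1529, and 705 in a cluster with LAMA2 at 2113. The remaining 2005 injured nuclei, cluster 19, had SYT1 at 2782, HBB at 1247 and FLT1 at 21.7, so the label was not borne out by its markers there. FLT1 and SLC2A1, both Endo markers of the study, were also low in the LAMA2 clusters. They stood at 10.9 and 10.9 in the control one and at 31.7 and 44.2 in the injured one. IGFBP7, the other Endo marker, stood there at 376 and 733. FLT1 and SLC2A1 thus did not bear out the label in most control Endo nuclei. Values for Endo are therefore given for all nuclei and by cluster.

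Over all Endo nuclei, 11 of 64 members tested were called, all higher in injured nuclei, against 6.18% of 13205 genes (4.19% called higher). They were 5 members of complex I (NDUFA1, NDUFA2, NDUFA8, NDUFB4 and NDUFB11) and 6 of complex IV (COX4I1, COX5B, COX7A2, COX7A2L, COX7B and COX7C). The median log2 fold change was 1.40 for members as fitted and 0.86 with those at 0 in control set to their bound. It was 0.26 for all genes as fitted, with no bounds set. All 11 met the 10% limit only through the deeper injured nuclei (median 1813 UMIs in injured and 922 in control Endo), which again favors higher calls. The control counts were small, with 450 member UMIs in all and at most 3 for 29 of the tested members.

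COX4I1 stood at 219, 147 and 175 CPM in injured Endo and at 4.90, from 1 UMI, in control, a ratio of 35.5 (95% counting interval 6.37 to 1404, edgeR adjusted p = 0.0018). NDUFB11 stood at 119, 99.8 and 112 against 9.80, from 2 UMIs, a ratio of 11.1 (3.07 to 91.9, edgeR adjusted p = 0.0024), and COX7A2 at 128, 97.8 and 96.4 against 9.80, a ratio of 10.6 (2.93 to 87.6, edgeR adjusted p = 0.0045). Intervals here cover counting error only. NDUFB4 and NDUFA1 had 3 control UMIs each, with ratios of 6.37 (2.18 to 31.0) and 6.27 (2.14 to 30.4). NDUFA2 (106, 85.7 and 85.7 in injured) and COX5B (82.3, 55.2 and 63.8) had 0 control UMIs and were at least 6.13-fold and 4.40-fold higher against a floor of 3 UMIs. COX7C (194, 126 and 151 against 24.5), COX7A2L (131, 93.0 and 108 against 19.6), COX7B (136, 111 and 124 against 29.4) and NDUFA8 (94.1, 81.1 and 82.96 against 19.6) had log2 fold changes of 2.78, 2.60, 2.18 and 2.24. Every injured library was above control for each of the 11.

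The Endo members with at least 10 UMIs in each cohort, 13 in number, gave smaller values. NDUFB2, an accessory subunit, stood at 133, 99.3 and 127 CPM in injured and 49.0 in control (1.39, SE 0.38, edgeR adjusted p = 0.034), and ATP5A1 at 117, 78.7 and 119 against 53.9 (1.07, SE 0.44, edgeR adjusted p = 0.13). The most negative were NDUFB6 (-0.77) and NDUFAF2 (-0.47), with edgeR adjusted p of 0.24 and 0.23. The complex IV sum was 1120, 796 and 914 against 186, 5.07 times the control value, while the complex II sum was 236, 224 and 242 against 279, 0.837 times.

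Between clusters that shared a high level of LAMA2 or of FLT1, the injured sums again lay above control, and hardly any gene was called. These clusters were not alike in makeup. LAMA2 stood at 2113 CPM in injured cluster 20 and 4675 in its control counterpart. Injured cluster 14 held PDGFRB at 319 and LAMA2 at 359, against 0 UMIs of each in the control FLT1 cluster. In the LAMA2 clusters, members summed to 3479, 2613 and 3121 CPM in injured and 2240 in control. COX4I1 stood there at 135, 79.8 and 106 against 5.45, from 1 UMI. Comparison of the LAMA2 clusters called 0 of 57 members and 11 of all 9887 genes (28.1% of members and 21.3% of genes had an unadjusted p below 0.05 with edgeR). In the combined FLT1 clusters the injured mean was 2.56 times control, and 0 of 62 members and 3 of all 11257 genes were called (30.6% and 12.97% at that unadjusted limit). The absence of calls there says nothing particular about the members. The 26 control nuclei there held 39 member UMIs and 0 of COX4I1, which allows up to 146 CPM. Without injured cluster 19, 12 of 63 members and 777 of 12512 genes were called. Over all Endo nuclei, where 816 genes were called with all libraries, leaving out injured 1 gave 6 members and 513 genes, injured 2 gave 21 and 1617, and injured 3 gave 17 and 1418. DESeq2 gave 2 members and 684 genes. With nuclei thinned to 1000 UMIs, 0 of 62 members were called (33.9% at an unadjusted p below 0.05 with edgeR, against 27.0% of all genes), with 433 of 11346 genes.

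**Figure D4:**
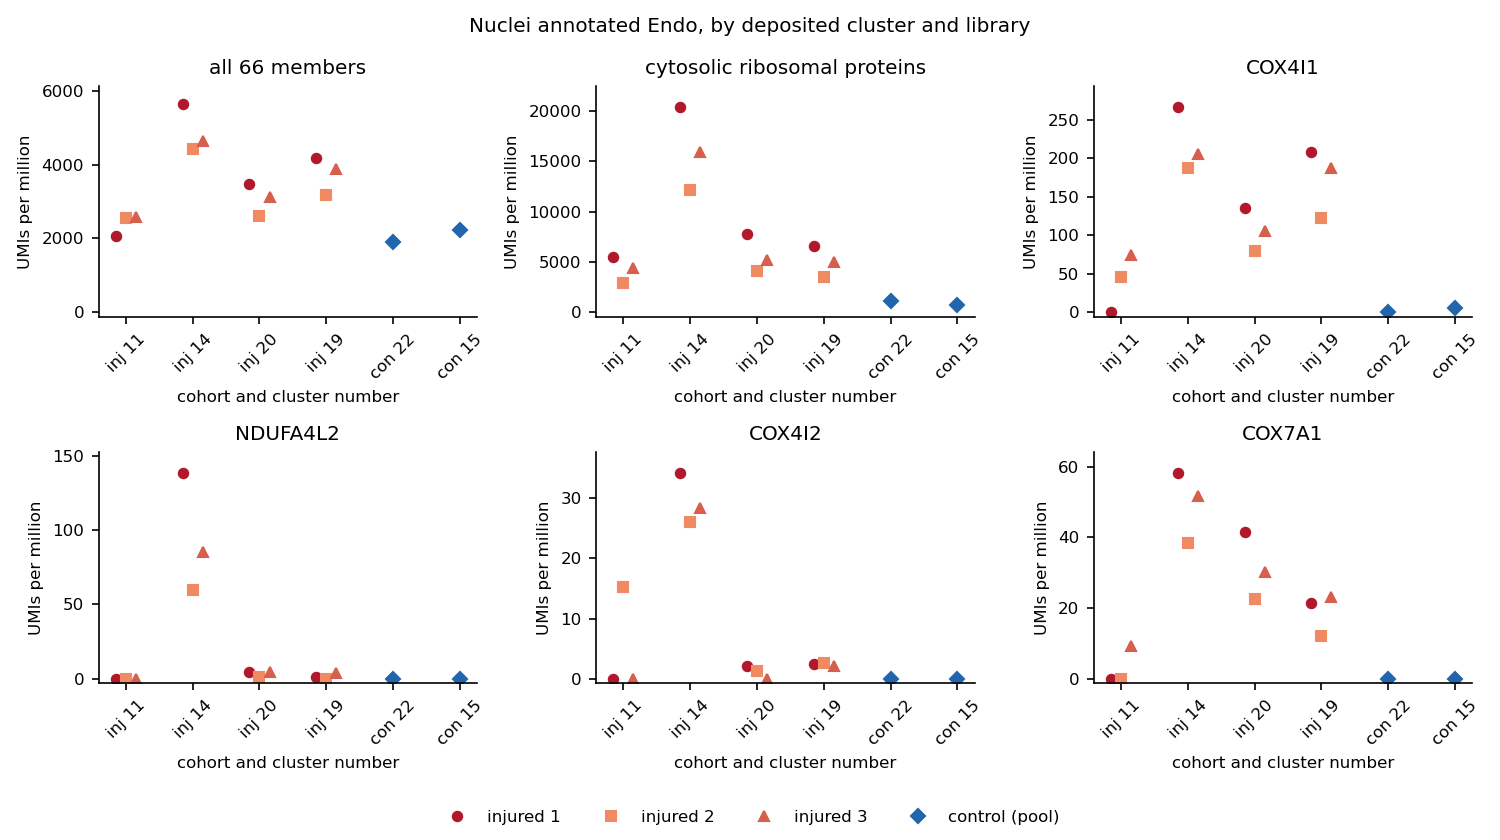
Level of all members, of cytosolic ribosomal protein genes and of 4 complex IV genes in nuclei annotated Endo, in CPM (vertical axis), by deposited cluster (inj, injured; con, control; horizontal axis); each symbol is 1 library. Injured cluster 14 holds the highest member sums, at 4427 to 5645, and nearly all UMIs of NDUFA4L2 and COX4I2.

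UMIs of NDUFA4L2 were concentrated in 1 of these clusters, and those of the complex IV isoform genes COX4I2 and COX7A1 less so. NDUFA4L2, a relative of the complex IV subunit NDUFA4 that is known to be induced by hypoxia, had 150, 129 and 196 UMIs in cluster 14 of injured 1, 2 and 3, of 190, 159 and 260 in the whole libraries. Its level there was 138, 59.8 and 85.4 CPM, against 0 in injured cluster 11 and at most 4.86 in injured clusters 19 and 20. Cluster 14 also held IGFBP7 at 2822 and PDGFRB, a mural cell gene, at 319. The control Endo nuclei had 0 UMIs of NDUFA4L2, and over all Endo nuclei it was at least 3.04-fold higher in injured against a floor of 3 UMIs. Between clusters that shared LAMA2 or FLT1 no rise was bounded, since the floors of the control clusters, 16.3 CPM with LAMA2 and 146 CPM with FLT1, lay above the 3.57 of injured cluster 20 and the 85.8 of injured cluster 14. In ExN it stood at 1.499, 0.635 and 1.38 against 0.117, from 2 control UMIs, a ratio of 9.19 (95% counting interval 2.44 to 77.6). It had a UMI there in only 1.02%, 0.33% and 0.86% of nuclei of injured 1, 2 and 3. The share in injured Astro, InN, Oligo, OPC and microglia was at most 0.83% in any library.

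COX4I2, the isoform of COX4I1 found in lung and vessels, was less concentrated there, with 37, 56 and 65 UMIs in cluster 14 of 72, 88 and 109 in the whole libraries. In ExN it stood at 1.03, 0.675 and 0.901 CPM in injured and 1.40 in control (log2 fold change -0.62, SE 0.41, edgeR adjusted p = 0.30). COX7A1, the heart and muscle isoform of subunit VIIa, stood at 41.8, 27.6 and 39.4 in injured Endo against 0 control UMIs, at least 2.41-fold higher. It was less bound to cluster 14, where it stood at 58.1, 38.5 and 51.8, with 41.4, 22.6 and 30.1 in cluster 20 and 21.5, 12.1 and 23.0 in cluster 19. In ExN it stood at 1.89, 1.71 and 2.17 against 0.351 (2.54, SE 0.47, edgeR adjusted p = 0.013), in few nuclei.

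Among the other isoform pairs, COX7A2, the ubiquitous partner of COX7A1, had log2 fold changes of 0.79 in ExN and 0.89 in InN (edgeR adjusted p = 0.023 and 0.046), and COX7A2L, which takes part in supercomplex assembly, of -0.17 and -0.07 (edgeR adjusted p = 0.40 and 0.87). COX7B stood at 27.4, 27.5 and 25.3 CPM in injured ExN and 17.7 in control (0.70, SE 0.16, edgeR adjusted p = 0.023), against the negative values of COX7B2. NDUFA4 stood at 8.83, 8.38 and 9.44 against 12.9 (-0.43, SE 0.19, edgeR adjusted p = 0.15). ATP5G1, which encodes the same mature subunit c as ATP5G3, stood at 14.8, 13.9 and 12.5 against 10.6 (0.48, SE 0.20, edgeR adjusted p = 0.12). COX6B2 stood at 0.710, 0.993 and 1.32 against 1.46 (-0.39, SE 0.45, edgeR adjusted p = 0.55). Within a pair the isoforms thus had unlike fitted values in ExN, and the difference between isoforms was not tested.

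Whether the injury effect of a member differed between cell types was tested in 1 fit over all 28 sums, each cell type against the mean of the other 6, with library as a block. Of 65 members tested, 1 was called in Endo (3.38% of 14772 genes), 2 in microglia (2.53%), 1 in Astro (0.528%) and 0 in ExN (0.25%), InN (0.129%), OPC (0.19%) and Oligo (0.305%). In these last 4, edgeR gave 12, 12, 7 and 10 members at an unadjusted p below 0.05, against 16.7%, 14.5%, 11.0% and 13.9% of all genes. COX4I1 in Endo lay 3.68 (SE 0.84, edgeR adjusted p = 0.0087) above the mean of the others on the log2 scale. In microglia, SDHB lay 1.76 (SE 0.35, edgeR adjusted p = 0.0037) and NDUFS4 1.90 (SE 0.34, edgeR adjusted p = 0.0084) above it. COX5B in Astro lay 6.13 below it (edgeR adjusted p = 0.0022), a fitted size that is no bound, since COX5B had 0 control UMIs in Endo, microglia and OPC.

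These 4 differences rested on few control UMIs (1, 9, 5 and, in Astro, 15). The COX4I1 call was lost when any 1 injured library was left out, and neither microglia call held without injured 1, without injured 2 or with RLE factors. The COX5B call was lost without injured 1 and without injured 2. Calls over all genes in these settings are not given, so the losses cannot be read as particular to the members.

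Other genes of energy metabolism and protein synthesis gave a background for these values. Genes of cytosolic ribosomal proteins summed to 1403, 1178 and 1199 CPM in injured ExN and 680 in control, with 19 of 58 tested genes called higher and 0 lower. The injured mean of that sum was above control in every cell type, from 1.85 times in ExN to 13.7 times in Endo. In Endo, 27 of 57 were called higher, with a sum of 13095, 8156 and 10783 against 779. The part of this shift in the member values was not tested. Mitochondrial ribosomal protein genes summed to 0.899 (InN) to 1.29 (Endo) times control, with 2 called higher in Endo, 1 lower in ExN and 0 in the other cell types.

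**Figure D5:**
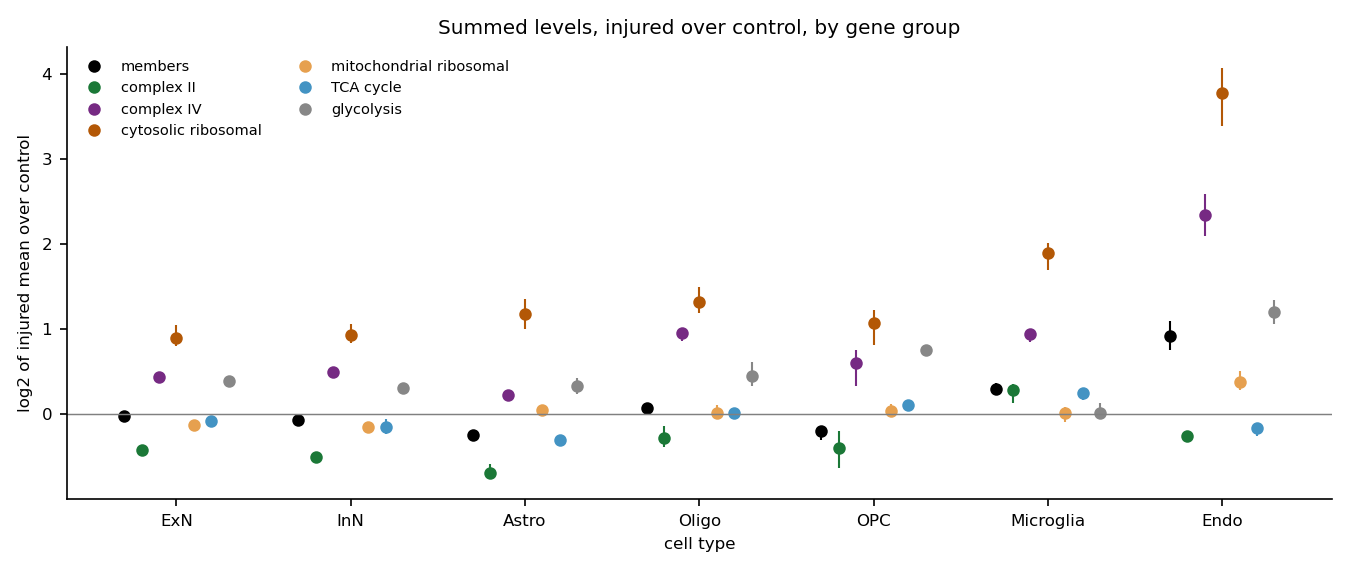
Log2 of the injured mean over control of summed levels (vertical axis) in each cell type (horizontal axis), by gene group; points are the mean of the 3 injured libraries and lines run from the lowest to the highest. Cytosolic ribosomal protein genes lie highest in all 7 cell types and complex II is below 0 in all but microglia.

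Of 15 TCA cycle and pyruvate dehydrogenase genes tested in ExN, 2 were called, both higher. These were IDH3B (38.7, 36.0 and 42.1 CPM in injured ExN against 20.9, 1.01) and IDH3G (23.2, 17.7 and 18.7 against 8.37, 1.35), regulatory subunits of the enzyme that makes NADH from isocitrate. The median log2 fold change of the list was -0.06, and 0 were called in the other cell types. Of 13 glycolysis genes tested in ExN, 2 were called, and the list had a median of 0.50. ALDOA stood at 70.6, 61.7 and 67.4 in injured ExN against 25.2 (1.51), and ALDOC at 37.9, 42.6 and 33.9 against 15.6 (1.40), both aldolases. In InN, ALDOA, ALDOC and PGAM1 were called higher, and in Endo PFKP, PGK1 and PKM, the last with 205, 150 and 197 against 44.1. The other 4 cell types had 0 glycolysis calls.

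Respiratory chain genes that the symbol rule does not cover were called in neurons and Endo. CYC1, which encodes cytochrome c1 of complex III, stood at 29.4, 21.5 and 27.3 CPM in injured ExN and 5.56 in control (2.33, SE 0.24, edgeR adjusted p = 0.0021). ATPIF1, an inhibitor of the ATP synthase, stood at 40.5, 37.5 and 36.1 against 13.05 (1.65, SE 0.16, edgeR adjusted p = 0.0016). Both were also called higher in InN and Endo, and C14orf2 in Endo, giving 2 of 8 genes tested in ExN, 2 of 7 in InN and 3 of 8 in Endo. Of 24 to 26 assembly factors outside the rule tested in each cell type, 0 were called.

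Among 9 regulators of respiratory chain genes, only PPARGC1B in Endo was called, at 51.0, 40.0 and 44.9 CPM in injured and 157 in control (-1.69). Of 10 to 12 hypoxia-induced genes tested, 0 were called outside Endo. In Endo, EPAS1 (816, 849 and 911 against 216) and SLC2A1 (836, 1030 and 952 against 142) were higher and NDRG1 (48.1, 61.3 and 54.5 against 250) lower. SLC2A1 is also an endothelial marker, and the share of FLT1 clusters differed between the cohorts as given above.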

How the data were processed

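The authors counted UMIs per gene and nucleus with Cell Ranger 3.1.0 (per the labels) against calJac3 and its Ensembl gene models. Scrublet was used against doublets in injured libraries, and Seurat filters were set on control nuclei. The deposited tables hold raw counts without normalization, and tables of nuclei with library, cluster and cell type, which were used as given. No nucleus was removed and no doublet caller was run here. Cell Ranger's treatment of reads shared with near-identical gene copies is not stated in the sources used here, so values of genes with such copies are uncertain.

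For each library and cell type, the counts of the 16383 genes in both tables were added up, and edgeR (version 4.0.16, run in R 4.3.3) compared the sums with filterByExpr, TMM factors and its quasi-likelihood fit and test. Since control is 1 library, its spread was taken to be that of the 3 injured libraries. Differences between cell types were fitted as interactions with library as a block. Levels are CPM. P-values measure only the spread between these 3 animals. Ratios with 1 to 3 control UMIs carry an exact 95% interval, and genes at 0 a bound against 3 UMIs.

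Named members are those called, the complex II subunits, the 2 members with the most UMIs in each complex, listed isoform groups, the 2 largest rises and 2 largest falls per cell type among members with at least 10 UMIs in each cohort, and members with no UMI in 1 cohort. Members past the looser p limit, and pathway genes, were named after their values were seen. The members and lists were chosen with earlier results of these data known. Values of 1 member named by this rule are not reported here. The gene names of identifiers came from a table of names.

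On simulated data, genes changed by a fold of 4 were called in 92.9% of cases for ExN (14885 genes), 56.5% for Astro (12018 genes), 35.9% for Endo (12908 genes) and 17.2% for microglia (13209 genes), and genes changed by a fold of 2 in 38.4%, 5.15%, 3.03% and 0%. These rates are for the limits on p and fold alone, with the same spread for all genes. The limit on the share of nuclei was not applied there. In the data it was missed by 21 of 65 members in ExN, 36 of 62 in Astro, 26 of 64 in Endo and 37 of 64 in microglia. Alternatives were RLE factors, library size alone, DESeq2 1.42.0, no filter on low counts, an adjusted p limit of 0.05, nuclei thinned to 1000 UMIs, nuclei of at most 2500 genes and each injured library left out. Endo clusters, members listed by symbol and no limit on the share of nuclei were added after the data were seen. Sums and intervals were computed in Python 3.11.15 (scipy 1.17.1, pandas 2.3.3, numpy 2.4.6).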

Additional observations from a re-analysis of the deposited data

Results flagged for a closer look

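The injury effect on COX4I1 in Endo differed from the mean of the other cell types by 3.68 on the log2 scale, in a test of the difference itself. The same test gave 1.76 for SDHB and 1.90 for NDUFS4 in microglia, and -6.13 for COX5B in Astro. The last is a fitted value that rests on cell types with 0 control UMIs of COX5B. COX4I1 had 1 control UMI in Endo, whose nuclei differed in makeup between the cohorts. All of these calls rested on few control UMIs, and each was lost on leaving out some single injured libraries.

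COX6A2, the heart and muscle isoform of subunit VIa of complex IV, matched the symbol rule and was listed for the injured cohort only, with 73 UMIs (23, 27 and 23 in injured 1, 2 and 3). Of the 4 matching genes listed for that cohort only, the other 3 (COX6B1, COX8C and NDUFS7) had 0 injured UMIs. Such one-sided listing was common. Entries existed for 32323 genes in injured nuclei but for only 16383 in control nuclei, all of them shared. The lack of a control entry thus says nothing particular about COX6A2 or the other 3, and their control levels are unknown.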

How the results depend on the processing

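Counts of members called in Endo (11), ExN (7) and InN (6) changed with the settings. RLE factors gave 8 in Endo (734 of all genes, from 816). Library size alone gave 5 in Endo (619 genes), 5 in ExN (527, from 582) and 4 in InN (521, from 443). DESeq2 gave 2 in Endo (684) and 3 in InN (486), and called 1193 of all genes in ExN. Thinning to 1000 UMIs gave 0 in Endo, ExN and InN, and with no limit on the share of nuclei 0, 4 and 1. Only 8, 5 and 6 members met that limit after thinning, so few could be called. Nuclei of at most 2500 genes gave 4 (789 of all genes), 1 (243) and 1 (436), and 1 in Oligo (136). The limit of 0.05 gave 20, 12 and 11, and 1 each in Astro and Oligo, and no filter gave 1 in Oligo (204 of all genes). At 0.05 the share of all genes was 12.1% in ExN and 11.0% in InN. It was not worked out for Endo, Astro and Oligo, so their counts at that limit have no background. Leaving out single injured libraries gave 6 to 21 in Endo, 0 to 7 in ExN and 0 to 10 in InN. Endo clusters with FLT1 or with LAMA2 alone gave 0. The cause of these changes was not tested, apart from fewer samples, fewer nuclei or fewer members past the limit on the share of nuclei by construction.

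For the difference between cell types, the calls in Astro (1), Endo (1) and microglia (2) went to 0 to 1, 0 and 0 to 1 on leaving out single libraries. No filter gave 0 in Endo and 1 in microglia, and RLE factors 0 and library size alone 1 in microglia. Calls over all genes with libraries left out or in these settings are not given for this test, so the losses have no background. The limit of 0.05 gave 5 in Astro, 6 in Endo, 3 in microglia and 1 each in ExN and Oligo. The share of all genes at that limit was not worked out for this test. The injured mean of the member sum over control (0.842 in Astro, 1.89 in Endo, 0.983 in ExN, 0.951 in InN, 0.870 in OPC) was 0.894 in Astro, 1.002 in ExN, 0.942 in InN and 0.971 in OPC after thinning, 0.880 in Astro and 0.976 in InN with at most 2500 genes, and 2.56 and 1.37 in the FLT1 and LAMA2 clusters.

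Thinning reversed the fitted sign of ATP5H in Endo (5.84) and SDHD in InN (0.60), neither of them called. Without injured 2, SDHB in InN was called lower (-0.57), the only call of a lower member in any setting. Library size alone moved the median of all genes by -0.24 in microglia and by -0.10 to -0.13 elsewhere, and the share of higher calls among all genes from 67.5% to 49.9% in ExN, 64.3% to 47.6% in InN, 74.9% to 57.7% in Astro and 67.8% to 57.4% in Endo. No paired analysis was possible because control is 1 pooled library, which cannot be split by animal. Depth limits Endo, OPC and microglia, where 31, 24 and 40 of 66 members had at most 3 control UMIs.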
